A study of Mus musculus with 11 samples.

Results

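The endothelial identity genes are 10 mouse genes that mark the cells lining blood vessels: Pecam1, Cdh5, Cldn5, Esam, Kdr, Tek, Tie1, Emcn, Vwf and Egfl7. They were taken by gene symbol from the platform's annotation, where each had at least 1 probe set carrying its symbol alone. Together they have 14 of the 45037 probe sets tested and make up 10 of the 18193 genes with a symbol of their own. Cdh5 has 2 probe sets and Egfl7 has 4, and each gene is described below through the probe set whose mean over the 11 arrays was highest, with the others given beside it.

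Their transcripts were measured on 11 Affymetrix mouse arrays, in cultured progenitor lines of ICC (interstitial cells of Cajal, the pacemaker cells of gut muscle) and in the gastric tunica muscularis, the muscle wall of the stomach, from which the lines were derived. The tsA58 line (2xSCS70, 3 arrays) came from H-2Kb-tsA58 mice, whose transgene encodes a heat-sensitive SV40 large T antigen driven by the H-2Kb promoter, which interferon induces; it was kept at 39.5 °C with no interferon-gamma. The tsA58 tissue (3 arrays) was stomach muscle wall of H-2Kb-tsA58 mice. The C57BL/6J line (2xSCS2F10, 3 arrays) came from wild-type C57BL/6J mice and was kept at 37 °C with 5% chick embryo extract in the medium, and the C57BL/6J tissue (2 arrays) was stomach muscle wall of C57BL/6J mice. Each line was clonally derived, so each genotype is represented in culture by 1 clone. Genotype and culture conditions differ together between the lines and cannot be told apart. The labels give neither age nor sex, and they do not name the genetic background of the tsA58 mice.

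Endothelial cells are held together by junction proteins such as VE-cadherin and claudin-5, and they respond to vascular endothelial growth factors and angiopoietins through receptor kinases that few other cells carry. In a muscle wall they line the capillaries, arterioles, venules and lymphatics that run between the muscle layers. ICC progenitors are a different cell type, of the interstitium between the muscle cells.

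The start regions of 4 members are shown because the comparison of the 2 tissues divides these genes: Tie1 and Emcn were higher in tsA58 tissue, while Tek and Kdr did not pass the test there. Each runs from 250 bases before to 50 bases after a start listed by RefSeq (assembly GRCm38.p6), is written 5′ to 3′ on the gene's strand, and has the letters GGAAG, or CTTCC on the other strand, in capitals. These letters are the core bound by ETS factors, a family with known roles in endothelial transcription.
Tie1, chr4:118489800-118490099, minus strand: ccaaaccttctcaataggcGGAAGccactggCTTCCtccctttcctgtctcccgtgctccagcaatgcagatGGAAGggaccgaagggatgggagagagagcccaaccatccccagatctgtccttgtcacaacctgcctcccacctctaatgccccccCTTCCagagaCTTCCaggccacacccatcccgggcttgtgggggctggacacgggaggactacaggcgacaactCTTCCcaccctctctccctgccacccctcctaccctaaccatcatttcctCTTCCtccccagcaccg
Emcn, chr3:137340828-137341127, plus strand: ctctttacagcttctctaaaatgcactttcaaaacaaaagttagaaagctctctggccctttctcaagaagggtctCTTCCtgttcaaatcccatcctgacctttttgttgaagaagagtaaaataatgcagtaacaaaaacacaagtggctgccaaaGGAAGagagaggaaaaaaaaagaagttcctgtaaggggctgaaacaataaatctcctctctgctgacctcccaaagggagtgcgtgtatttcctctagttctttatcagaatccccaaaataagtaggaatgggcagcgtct
Tek, chr4:94739039-94739338, plus strand: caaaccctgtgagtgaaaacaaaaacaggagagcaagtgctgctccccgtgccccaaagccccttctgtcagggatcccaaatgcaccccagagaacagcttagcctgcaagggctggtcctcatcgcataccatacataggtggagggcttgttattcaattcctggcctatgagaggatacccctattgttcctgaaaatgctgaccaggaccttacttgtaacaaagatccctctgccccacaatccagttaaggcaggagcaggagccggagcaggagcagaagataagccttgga
Kdr, chr5:75978406-75978705, minus strand: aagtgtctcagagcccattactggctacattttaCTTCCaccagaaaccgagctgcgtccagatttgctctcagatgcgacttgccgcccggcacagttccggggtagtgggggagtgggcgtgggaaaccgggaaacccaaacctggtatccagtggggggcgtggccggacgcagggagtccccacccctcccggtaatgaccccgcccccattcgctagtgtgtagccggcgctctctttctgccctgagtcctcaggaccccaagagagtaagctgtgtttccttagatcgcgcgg
The Tie1 window holds 7 matches, the Emcn window 2, the Kdr window 1 and the Tek window 0. The Egfl7 windows, not shown, hold 4, 3 and 0 and the Cldn5 window 0, and neither gene was called between the tissues. Whether matches go with the tissue difference was not tested. RefSeq start regions were found for 6 of the 10 genes, 8 windows in all, since Egfl7 has 3 of them. Of the 8 windows 5 hold GGAAG or its complement, a share to be read beside the 71.4% of all 32851 listed start regions that hold it. GATAA or its complement, the letters of GATA factors, is in 3 of the 8 windows, against 25.4% of all start regions. The KLF letters CACCC or their complement are in 5 of the 8, against 57.5% of all, and the SOX letters ACAAT or their complement are in 2 of the 8, against 31.0%. TATAAA or its complement is in 0 of the 8, against 13.6% of all. A match describes the letters in the window and is not a binding site.

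Egfl7 is also the host gene of miR-126a, a microRNA known from endothelial cells, and its mature 3′ arm is shown because Egfl7 was the member that was not called in either line-tissue pair.
mmu-miR-126a-3p, chr2:26591402-26591423, plus strand: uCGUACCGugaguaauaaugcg
The capitals are the seed, bases 2 to 8. The sequence lies inside Egfl7 (chr2:26581083-26592682, plus strand, GRCm38.p6), and the arrays' Egfl7 probe sets were read here as the host transcript only.

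Values are log2 intensities made by the authors with RMA. The median of all probe sets on an array lay between 4.66 and 4.84, and a level at or below that median was taken as low, since the values carry no detection calls. A fold change that ends at such a level understates the change. Replicate arrays correlated at 0.956 or above in all groups, across probe sets. On tsA58 line array 3 the mean of 6 mesothelium genes was 10.2, against 7.74 and 6.64 on the other tsA58 line arrays, and on tsA58 tissue array 2 the mean of 6 gastric epithelium genes was 12.6, against 10.3 and 10.4 on the other tsA58 tissue arrays. The members' mean on those 2 arrays was 4.19 and 6.81, within or close to the range of their groups. Without tsA58 line array 3 the counts of members called stayed at 9, 6, 0, 5 and 5 in the 5 comparisons below, and without tsA58 tissue array 2 they were the same. The smooth muscle genes Actg2 and Myh11 lay between 12.1 and 13.3 on the 5 tissue arrays, whereas the 6 line arrays had 3.22 to 4.27. Kit, the receptor that defines mature ICC, was below the array median on all 6 line arrays.

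Both lines were low for most of these genes, and the tissues were higher. In the tsA58 line 7 of the 10 genes were below the array median on every array, and in the C57BL/6J line 6 were. In tsA58 tissue 0 were, and in C57BL/6J tissue 2. A median splits the probe sets of an array evenly, so the line counts alone do not set the members apart from other genes. Kdr and Egfl7 were above it on every array of both lines. In the tsA58 line 9 of the 10 genes were lower than in tsA58 tissue, against 9.65% of all probe sets called lower there and 18.4% called in either direction. In the C57BL/6J line 6 of the 10 were lower than in C57BL/6J tissue, against 10.3% of all called lower and 20.8% called in either direction, a count that was 1 with arrays centred on spiked hybridisation controls, where 34.5% of all probe sets were called in either direction. A gene was called when limma's adjusted p was below 0.05 and the change was at least 2-fold. The members' median log2 difference was -3.0 in the tsA58 pair and -1.22 in the C57BL/6J pair, while over all probe sets the median was 0.09 in each pair. The line and tissue arrays did not overlap for 9 of the 10 genes in each pair, against 17.1% of all probe sets in the tsA58 pair and 25.5% in the C57BL/6J pair. The 6 called in the C57BL/6J pair (Cldn5, Esam, Kdr, Tek, Emcn and Vwf) were also called in the tsA58 pair, and the other 3 called in the tsA58 pair were Pecam1, Cdh5 and Tie1. In whole tissue and whole cultures, fewer cells of a type and less RNA per cell cannot be told apart.

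**Figure D1:**
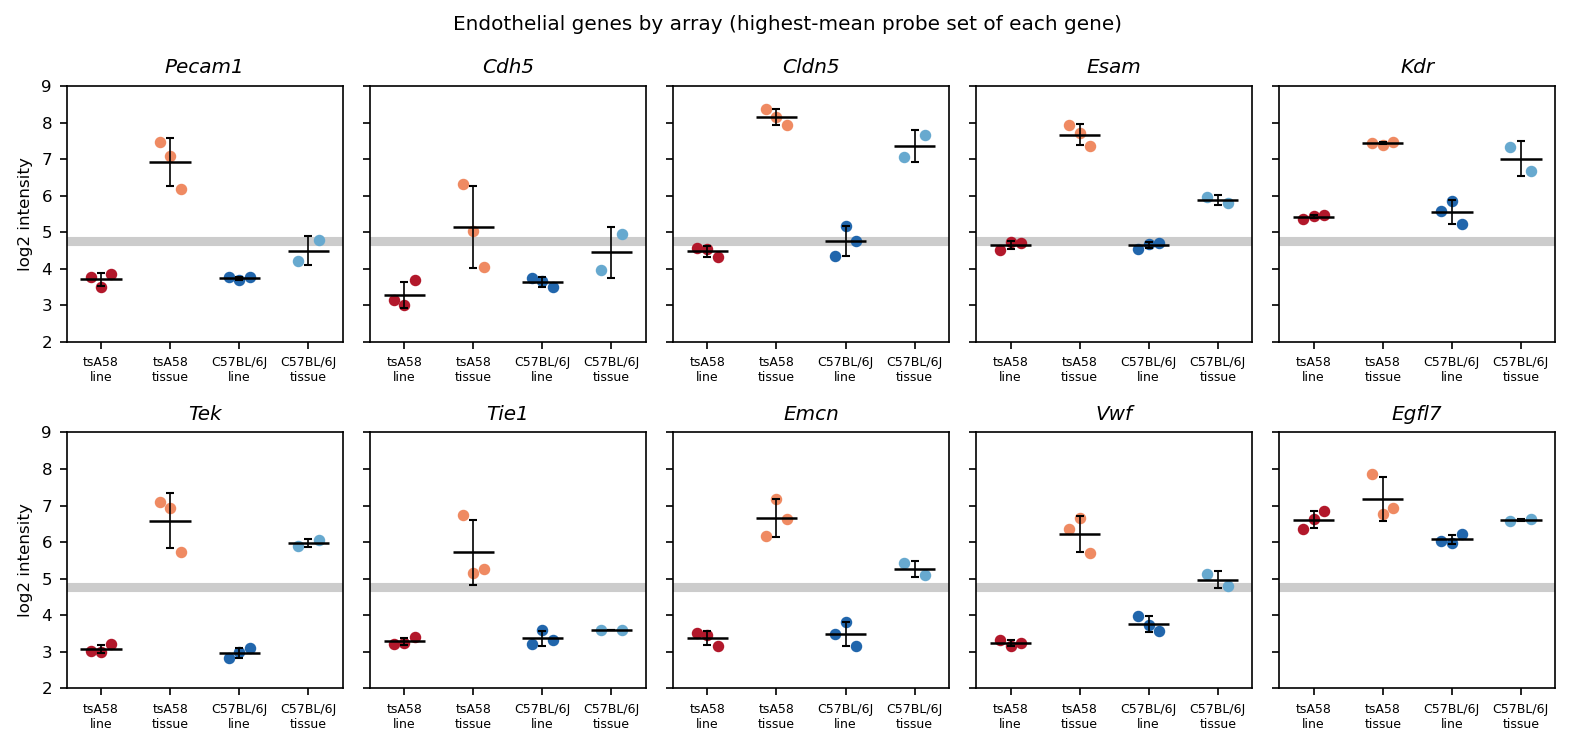
Level of each endothelial gene on each array, as log2 intensity. Points are arrays, horizontal lines are group means, error bars are SD, and the grey band is the range of the array medians (4.66 to 4.84). In 8 of the 10 panels the lowest of the 5 tissue arrays lies above the highest of the 6 line arrays, and tsA58 tissue has the highest mean in all 10.

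Among the adhesion proteins, claudin-5 (Cldn5), the main claudin of endothelial tight junctions, gave the widest gap in the tsA58 pair. Cldn5 read 4.56, 4.55 and 4.31 in the tsA58 line, against 8.38, 8.15 and 7.93 in tsA58 tissue. It read 4.36, 5.17 and 4.75 in the C57BL/6J line, against 7.06 and 7.67 in C57BL/6J tissue. Neither pair overlapped, and the line was 12.8-fold lower in the tsA58 pair (log2 difference -3.68 ± 0.23 SE, limma adjusted p = 2.28e-06) and 6.09-fold lower in the C57BL/6J pair (-2.61 ± 0.26, adjusted p = 5.53e-05).

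Esam encodes a junction adhesion protein of endothelial cells and platelets. It read 4.51, 4.72 and 4.72 in the tsA58 line, against 7.92, 7.72 and 7.35 in tsA58 tissue. In the C57BL/6J line it read 4.55, 4.68 and 4.70, against 5.97 and 5.79 in C57BL/6J tissue. Its levels lay between 4.51 and 4.72 on all 6 line arrays, and every tissue array stood above them. The log2 difference was -3.01 ± 0.16 in the tsA58 pair (limma adjusted p = 5.61e-07) and -1.23 ± 0.17 in the C57BL/6J pair (adjusted p = 0.000464).

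Pecam1 encodes CD31, the adhesion molecule most used to stain vessels, which platelets and some leukocytes also carry. It read 3.76, 3.50 and 3.85 in the tsA58 line, against 7.46, 7.09 and 6.19 in tsA58 tissue. The C57BL/6J line read 3.76, 3.70 and 3.76, against 4.21 and 4.78 in C57BL/6J tissue. Pecam1 was thus below the array median on both C57BL/6J tissue arrays, although those 2 values still lay above their line. The tsA58 line was 9.22-fold lower (log2 difference -3.20 ± 0.29, limma adjusted p = 2.72e-05), whereas the C57BL/6J difference of -0.76 ± 0.32 was not called (adjusted p = 0.103).

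Cdh5 encodes VE-cadherin, the cadherin of endothelial adherens junctions. Its higher probe set read 3.13, 3.01 and 3.70 in the tsA58 line, against 6.30, 5.04 and 4.06 in tsA58 tissue. In the C57BL/6J line it read 3.76, 3.67 and 3.50, against 3.96 and 4.95 in C57BL/6J tissue. The tissue arrays of each genotype spread widely, and in tsA58 tissue the SD of 1.13 was the highest among the 10 genes. The tsA58 difference was -1.85 ± 0.48 (limma adjusted p = 0.0158). Its call was lost when only the 2 groups compared were fitted (adjusted p = 0.0665) or without tsA58 line array 1 (0.0508) or array 2 (0.0507). Centring on the hybridisation controls also lost it (0.147). The C57BL/6J difference of -0.81 ± 0.54 was not called (adjusted p = 0.295).

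Of the receptor kinases, Tek (Tie2) is the receptor for angiopoietins. Tek read 3.03, 3.01 and 3.21 in the tsA58 line, against 7.11, 6.94 and 5.72 in tsA58 tissue. It read 2.82, 2.98 and 3.10 in the C57BL/6J line, against 5.89 and 6.06 in C57BL/6J tissue. The line was 11.4-fold lower in the tsA58 pair (log2 difference -3.51 ± 0.30, limma adjusted p = 2.11e-05) and 8.05-fold lower in the C57BL/6J pair (-3.01 ± 0.34, adjusted p = 0.000119).

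Tie1 is a receptor related to Tek that modulates its signalling. It read 3.21, 3.24 and 3.40 in the tsA58 line, against 6.75, 5.16 and 5.26 in tsA58 tissue. The C57BL/6J line read 3.20, 3.60 and 3.32, against 3.59 and 3.59 in C57BL/6J tissue. Both C57BL/6J tissue arrays therefore lay inside the range of their line and below the array median. The tsA58 log2 difference was -2.44 ± 0.35 (limma adjusted p = 0.000575), and the C57BL/6J one was -0.22 ± 0.39 (adjusted p = 0.723).

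Kdr encodes VEGFR2, the main signalling receptor for VEGF-A. It read 5.37, 5.44 and 5.46 in the tsA58 line, against 7.45, 7.40 and 7.46 in tsA58 tissue. In the C57BL/6J line it read 5.57, 5.86 and 5.22, against 7.34 and 6.68 in C57BL/6J tissue. Kdr was above the array median on every array, lines included, and in tsA58 tissue its SD of 0.04 was the lowest of the 10 genes. The log2 difference was -2.01 ± 0.20 in the tsA58 pair (limma adjusted p = 4.86e-05) and -1.46 ± 0.22 in the C57BL/6J pair (adjusted p = 0.000674).

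Emcn encodes endomucin, a sialomucin on the surface of capillary and venous endothelium. It read 3.51, 3.45 and 3.16 in the tsA58 line, against 6.16, 7.19 and 6.63 in tsA58 tissue. It read 3.50, 3.81 and 3.15 in the C57BL/6J line, against 5.43 and 5.11 in C57BL/6J tissue. No line array reached any tissue array, and the log2 difference was -3.29 ± 0.26 in the tsA58 pair (limma adjusted p = 1.18e-05) and -1.78 ± 0.29 in the C57BL/6J pair (adjusted p = 0.00113).

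The secreted members differed from each other. Vwf encodes von Willebrand factor, the clotting glycoprotein stored in endothelial granules and in platelets. It read 3.33, 3.15 and 3.23 in the tsA58 line, against 6.35, 6.65 and 5.69 in tsA58 tissue. The C57BL/6J line read 3.99, 3.73 and 3.57, against 5.14 and 4.81 in C57BL/6J tissue. The groups of a pair did not overlap, and the log2 difference was -2.99 ± 0.23 in the tsA58 pair (limma adjusted p = 8.82e-06) and -1.21 ± 0.26 in the C57BL/6J pair (adjusted p = 0.00499). The C57BL/6J call was lost without C57BL/6J tissue array 1 (adjusted p = 0.0547).

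Egfl7 encodes a matrix protein that endothelial cells secrete and that guides the growth of vessel tubes. It read 6.37, 6.62 and 6.85 in the tsA58 line, against 7.86, 6.76 and 6.93 in tsA58 tissue. In the C57BL/6J line it read 6.03, 5.99 and 6.22, against 6.58 and 6.62 in C57BL/6J tissue. It was well above the array median in both lines, the tsA58 groups overlapped, and tsA58 tissue array 1 stood above the other 2. Neither difference was called, at -0.57 ± 0.26 in the tsA58 pair (limma adjusted p = 0.130) and -0.52 ± 0.29 in the C57BL/6J pair (adjusted p = 0.202).

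The other probe sets of Cdh5 and Egfl7 did not all follow the first. The second Cdh5 probe set, 1422047_at, stayed below the array median on all 11 arrays, with log2 differences of -0.15 ± 0.23 in the tsA58 pair and 0.13 ± 0.25 in the C57BL/6J pair. Egfl7 1451428_x_at read 6.48, 6.57 and 6.33 in the tsA58 line, with 7.80, 6.81 and 6.93 in tsA58 tissue. It read 5.54, 5.12 and 5.09 in the C57BL/6J line and 6.47 and 6.40 in C57BL/6J tissue. This probe set alone of the 4 was called lower in the C57BL/6J line than in C57BL/6J tissue (-1.19 ± 0.27, limma adjusted p = 0.00758), a call that was lost without C57BL/6J tissue array 1 (adjusted p = 0.0548). In the tsA58 pair its difference of -0.72 ± 0.24 had an adjusted p of 0.0481 but was under 2-fold. Egfl7 1435823_x_at differed by -0.61 ± 0.30 in the tsA58 pair and by -0.23 ± 0.33 in the C57BL/6J pair, and 1421335_a_at by -0.11 ± 0.22 and by 0.38 ± 0.24 in the same pairs, with neither probe set called. Probe sets whose names end in x_at can bind related sequences as well.

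**Figure D2:**
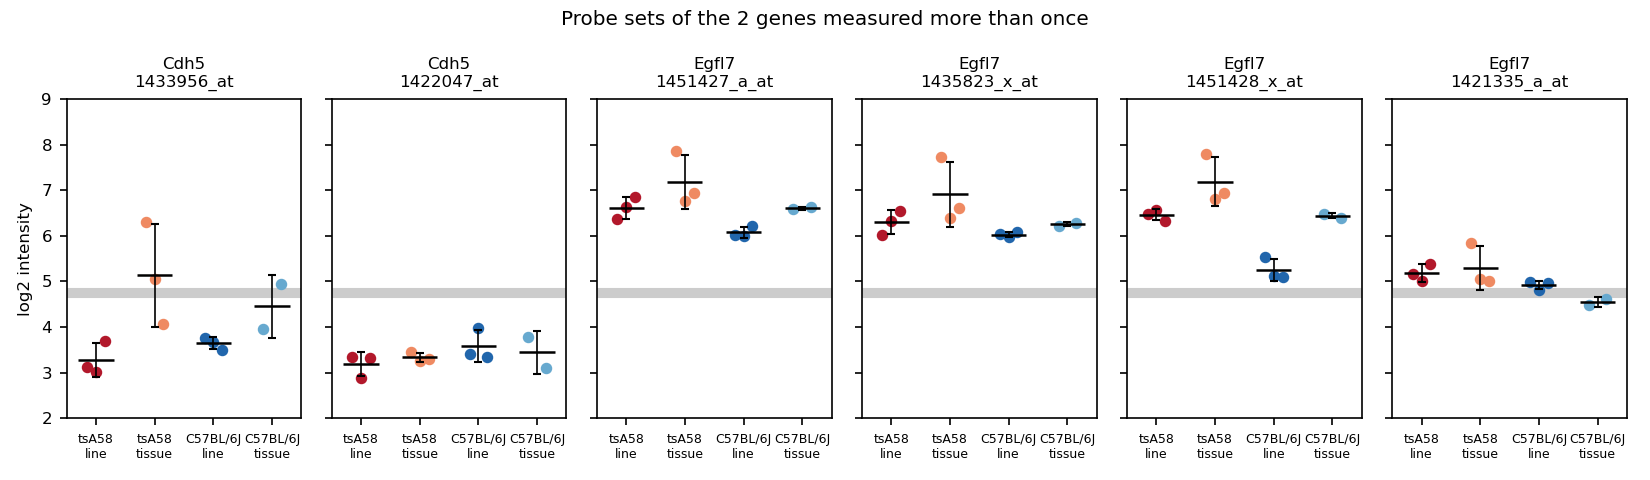
Log2 intensity of every probe set of Cdh5 and Egfl7 on each array, with points for arrays, lines for group means, bars for SD and a grey band for the range of array medians. The second Cdh5 probe set lies below the band in all 4 groups, and the C57BL/6J line arrays lie below all other arrays on Egfl7 1451428_x_at, at 5.09 to 5.54, and on Egfl7 1451427_a_at, at 5.99 to 6.22.

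Between the lines no member passed the test. Of the 10 genes 0 were called between the tsA58 line and the C57BL/6J line in limma, against 8.06% of all probe sets, and 1 had an unadjusted p below 0.05 (centring on the hybridisation controls gave 7, all higher in the tsA58 line, with 76.9% of all probe sets called in either direction). That gene was Vwf, at -0.53 ± 0.23 (95% interval -1.04 to -0.02, adjusted p = 0.162), and Egfl7 lay at the other end at 0.53 ± 0.26 (-0.04 to 1.11, adjusted p = 0.207). For Kdr, above the array median on every line array, the interval ran from -0.56 to 0.32, which does not include a 2-fold difference. For Esam the interval ran from -0.34 to 0.35. Esam was above the array median on only 1 of 3 arrays in each line, and at such a level a narrow interval does not bound the difference. Most other members were also low in both lines. For Cdh5 the interval ran from -1.44 to 0.72, so a 2-fold lower level in the tsA58 line is within it. Outside the chosen probe sets, Egfl7 1451428_x_at was higher in the tsA58 line (1.21 ± 0.24, limma adjusted p = 0.00921), without overlap between the lines.

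The tissues did differ. In tsA58 tissue 5 of the 10 genes were higher than in C57BL/6J tissue, against 5.61% of all probe sets called higher and 9.68% called in either direction, and 0 were lower. Pecam1 was 5.33-fold higher in tsA58 tissue (log2 difference 2.42 ± 0.32, limma adjusted p = 0.00121), with all 3 tsA58 tissue arrays above both C57BL/6J tissue arrays. Tie1 was 4.38-fold higher (2.13 ± 0.39, adjusted p = 0.00554) and Esam 3.45-fold higher (1.79 ± 0.17, adjusted p = 0.000286), again without overlap. Emcn was 2.62-fold higher (1.39 ± 0.29, adjusted p = 0.0103), and Vwf was 2.39-fold higher (1.26 ± 0.26, adjusted p = 0.00894).

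The other members were not called between the tissues. Cldn5 differed by 0.79 ± 0.26 (95% interval 0.21 to 1.37, limma adjusted p = 0.0665), Cdh5 by 0.68 (adjusted p = 0.452) and Tek by 0.61 (adjusted p = 0.268). Egfl7 differed by 0.58 (adjusted p = 0.213), and for Kdr the difference was 0.43 ± 0.22 with an interval of -0.06 to 0.92, which does not reach 2-fold (adjusted p = 0.231). The receptors thus gave both the second largest difference (Tie1) and the smallest (Kdr) among the 10 genes. The groups did not overlap for 8 of the 10 genes, all higher in tsA58 tissue, against 24.2% of all probe sets. The members' median difference was 1.02, while that of all probe sets was -0.02.

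Of the 5 calls between the tissues 2 were lost without C57BL/6J tissue array 2, those of Emcn (limma adjusted p = 0.0854) and Vwf (0.0782), and Vwf was also lost when only the 2 tissues were fitted (0.0548). Without tsA58 tissue array 3 Tek was called as well (1.05, adjusted p = 0.00445). The tsA58 tissue arrays were unequal across the whole set: array 1 was the highest of the 3 for 7 of the 10 genes and array 3 the lowest for 6, and the mean over the members was 7.17, 6.81 and 6.32 on arrays 1 to 3. The C57BL/6J tissue arrays had means of 5.52 and 5.61, so every tsA58 tissue array was above both. In the lines the means lay between 4.07 and 4.32.

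Other measures moved with the tissue difference. The 9 smooth muscle genes averaged 12.24 to 12.57 on the tsA58 tissue arrays, against 11.03 to 11.22 on the C57BL/6J tissue arrays, and 3 of the 9 were called higher in tsA58 tissue (Smtn at 2.54, Des at 2.47 and Lmod1 at 1.87). The 10 leukocyte genes averaged 6.56 to 7.45 in tsA58 tissue, against 6.48 to 6.72 in C57BL/6J tissue, so the groups overlapped. Of these 10, Lyz2 (1.76) and Coro1a (1.19) were called higher in tsA58 tissue and 0 were called lower. Beside these counts, 5.61% of all probe sets were called higher in tsA58 tissue and 9.68% in either direction. Laptm5, chosen after its values were seen, read 5.41, 5.04 and 5.13 in tsA58 tissue, against 7.10 and 7.44 in C57BL/6J tissue, and was not called (limma adjusted p = 0.0509). The 9 platelet and megakaryocyte genes, of interest because platelets carry Vwf, Pecam1 and Esam, averaged 5.28 to 5.53 in tsA58 tissue, against 5.56 to 5.86 in C57BL/6J tissue, with 0 of 9 called by limma and 2 at an unadjusted p below 0.05. The 3′ actin probe sets minus the 5′ ones on the log2 scale, a sign of RNA quality and amplification, gave 0.44 ± 0.03 in tsA58 tissue and 0.93 ± 0.12 in C57BL/6J tissue (SD, n = 3 and 2). The part of muscle and leukocyte RNA in the tissue difference was not tested. With the actin ratio as a covariate 5 genes were again called higher in tsA58 tissue. The probe sets called in either direction then numbered 4259 of 45037, against 4360 without the covariate. The ratio varied within groups mostly in the tsA58 line (SD 0.40), and its values did not overlap between the tissues. This fit therefore cannot separate the ratio from the tissue difference, and the part of RNA quality was not tested.

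The signal of the spiked hybridisation controls averaged 8.74 ± 1.10 in tsA58 tissue and 10.86 ± 0.13 in C57BL/6J tissue, and 8.14 ± 0.19 in the tsA58 line, against 9.63 ± 0.29 in the C57BL/6J line (SD). Centring each array on these controls moved the median of all probe sets by 2.13 between the tissues, 1.49 between the lines, 0.60 in the tsA58 pair and 1.23 in the C57BL/6J pair. All differences here are relative to the bulk of probe sets on the same array. On the scale of the controls, 10 of the 10 genes were called higher in tsA58 tissue and 7 of the 10 higher in the tsA58 line than in the C57BL/6J line, and the genes called lower in the lines numbered 7 in the tsA58 pair and 1 (Tek) in the C57BL/6J pair. The shares of all probe sets called in either direction on that scale were 92.6% between the tissues, 76.9% between the lines, 13.9% in the tsA58 pair and 34.5% in the C57BL/6J pair. The counts between the tissues and between the lines are therefore near the background and say nothing about the members.

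**Figure D3:**
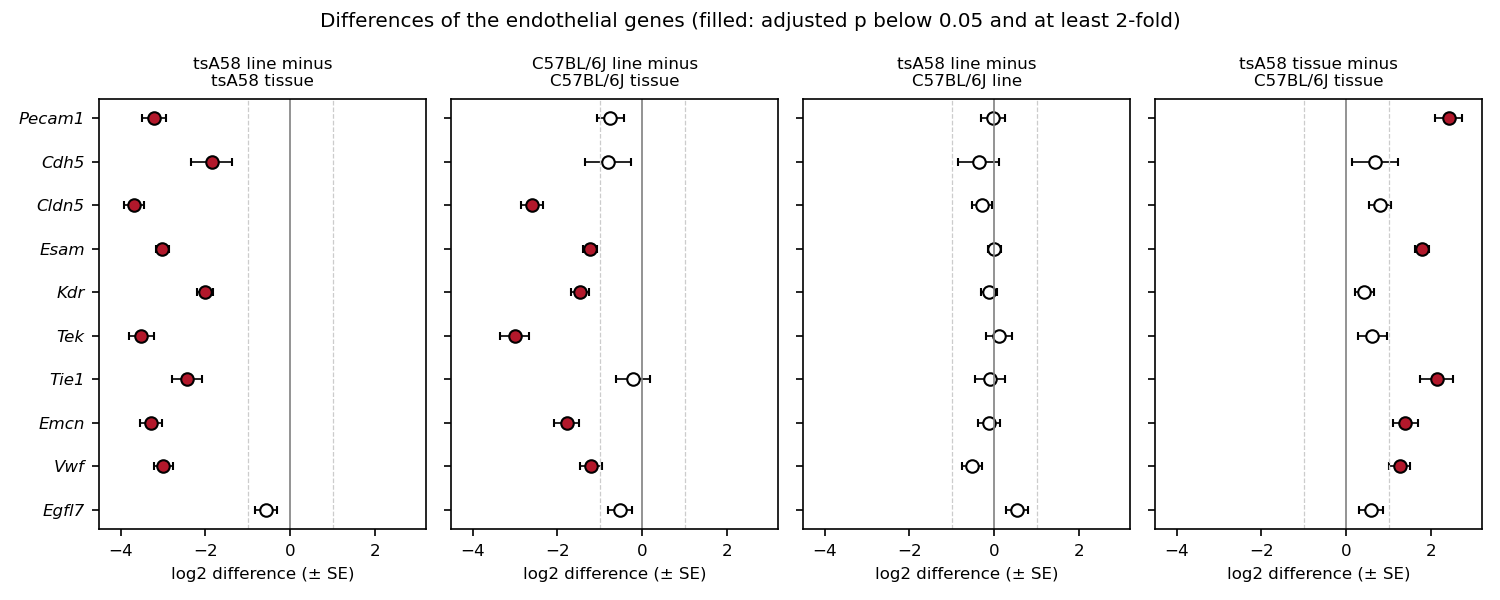
Log2 difference of each endothelial gene in 4 comparisons, with SE as bars. Filled points passed the test (adjusted p below 0.05 and at least 2-fold) and dashed lines mark 2-fold. In the first panel 9 of the 10 points are filled and in the second 6, all to the left of 0; the third panel has 0 filled points, and the fourth has 5, all to the right.

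The line-tissue difference was larger in the tsA58 pair for 5 of the 10 genes, by the test of the difference itself, against 7.01% of all probe sets called in that direction and 13.2% in either, and for 2 once the hybridisation controls were used for centring, where 2.89% of all were called in either direction. The 5 were those that differed between the tissues (Pecam1, Tie1, Esam, Vwf and Emcn), and the 2 comparisons share the same tissue arrays. For Pecam1 the log2 difference between line and tissue was -3.20 in the tsA58 pair and -0.76 in the C57BL/6J pair, 2.45 apart (SE 0.43, limma adjusted p = 0.00499). Tie1 had -2.44 in the tsA58 pair and -0.22 in the C57BL/6J pair (adjusted p of the difference 0.0187), Esam -3.01 and -1.23 (0.00127), Vwf -2.99 and -1.21 (0.00746), and Emcn -3.29 and -1.78 (0.0281), in the same order of pairs. Cldn5 missed the threshold at -3.68 and -2.61 (0.0648), and Tek, at -3.51 and -3.01, and Egfl7, at -0.57 and -0.52, were close in the 2 pairs. Without C57BL/6J tissue array 1 or array 2, 3 of these 5 calls were left, those of Pecam1, Esam and Vwf. In levels, all 10 genes had their highest group mean in tsA58 tissue, and 9 had the next highest in C57BL/6J tissue, with the exception of Egfl7, for which the tsA58 line (6.61) and C57BL/6J tissue (6.60) did not differ beyond their spread.

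Many other genes of endothelial cells were lower in the lines as well. Of 20 further surface and signalling genes, 11 were lower in the tsA58 line than in tsA58 tissue (median log2 difference -1.89) and 0 higher. In the C57BL/6J line 8 were lower than in C57BL/6J tissue (median -0.53) and 1 higher, Nos3 (1.82 ± 0.33, limma adjusted p = 0.00192). Of all probe sets 9.65% were called lower in the tsA58 pair and 10.3% in the C57BL/6J pair. Ecscr, an endothelial surface protein that affects cell migration, was lower by both tests, at -4.29 ± 0.30 in the tsA58 pair (limma adjusted p = 5.22e-06) and -3.18 ± 0.34 in the C57BL/6J pair (8.47e-05). Ramp2, which pairs with Calcrl to form the adrenomedullin receptor, differed by -3.66 in the tsA58 pair and by -2.26 in the C57BL/6J pair. Aplnr, the apelin receptor, was lower in the C57BL/6J line (-5.43 ± 1.03, adjusted p = 0.00274), with 8.73 and 8.43 in C57BL/6J tissue. In tsA58 tissue Aplnr read 8.28, 5.36 and 3.33, a range wider than that of any member, and it was not called in the tsA58 pair. Thbd, thrombomodulin, differed between the lines and was not called between the tissues. It read 3.75, 3.72 and 3.50 in the tsA58 line, against 8.73, 9.23 and 7.83 in the C57BL/6J line. It was lower in the tsA58 line by 4.94 ± 0.35 on the log2 scale (limma adjusted p = 3.28e-05). In the tsA58 pair Thbd differed by -5.51 ± 0.35 (limma adjusted p = 2.47e-06), and in the C57BL/6J pair it was not called (-0.69 ± 0.39).

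Between the tissues 3 of these 20 genes were higher in tsA58 tissue: S1pr1, a receptor for sphingosine 1-phosphate (1.94 ± 0.25, limma adjusted p = 0.00107), Ramp2 (1.23 ± 0.19) and Plvap, the diaphragm protein of fenestrated endothelium (1.20 ± 0.28). None of the 20 was lower, and of all probe sets 5.61% were called higher in tsA58 tissue and 9.68% in either direction. Of 18 transcription factors with roles in endothelium, 8 were lower and 2 higher in the tsA58 pair. In the C57BL/6J pair 5 were lower and 1 higher. The shares of all probe sets called in either direction were 18.4% in the tsA58 pair and 20.8% in the C57BL/6J pair. The factors called higher were Hhex (2.22 ± 0.25) and Foxc1 (1.05 ± 0.17) in the tsA58 pair and Gata2 (1.69 ± 0.20) in the C57BL/6J pair. Mef2c, which muscle also uses, was the largest in both, at -4.49 in the tsA58 pair and -3.76 in the C57BL/6J pair. Between the tissues Sox18 (1.41), Foxf1 (1.23) and Lyl1 (1.09) were higher in tsA58 tissue and 0 of 18 were lower. Of 7 arterial and venous genes, 0 were called between the tissues by limma (3 at an unadjusted p below 0.05), and 1 was lower and 1 higher in each line-tissue pair. Among 5 lymphatic genes measured, 2 were lower and 0 higher in the tsA58 pair, and 2 were lower and 1 higher in the C57BL/6J pair. The 1 higher was Flt4, the receptor for VEGF-C, which read 8.60, 8.32 and 9.61 in the C57BL/6J line, against 6.03 and 6.59 in C57BL/6J tissue (2.54 ± 0.77, limma adjusted p = 0.0304). Between the tissues Lyve1 (2.39 ± 0.16) and Reln (2.24 ± 0.28) were higher in tsA58 tissue and 0 of 5 were lower. Lyve1, which macrophages also express, read 2.57 to 2.94 in all line arrays, with 9.55 to 10.07 in tsA58 tissue and 7.30 and 7.56 in C57BL/6J tissue.

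**Figure D4:**
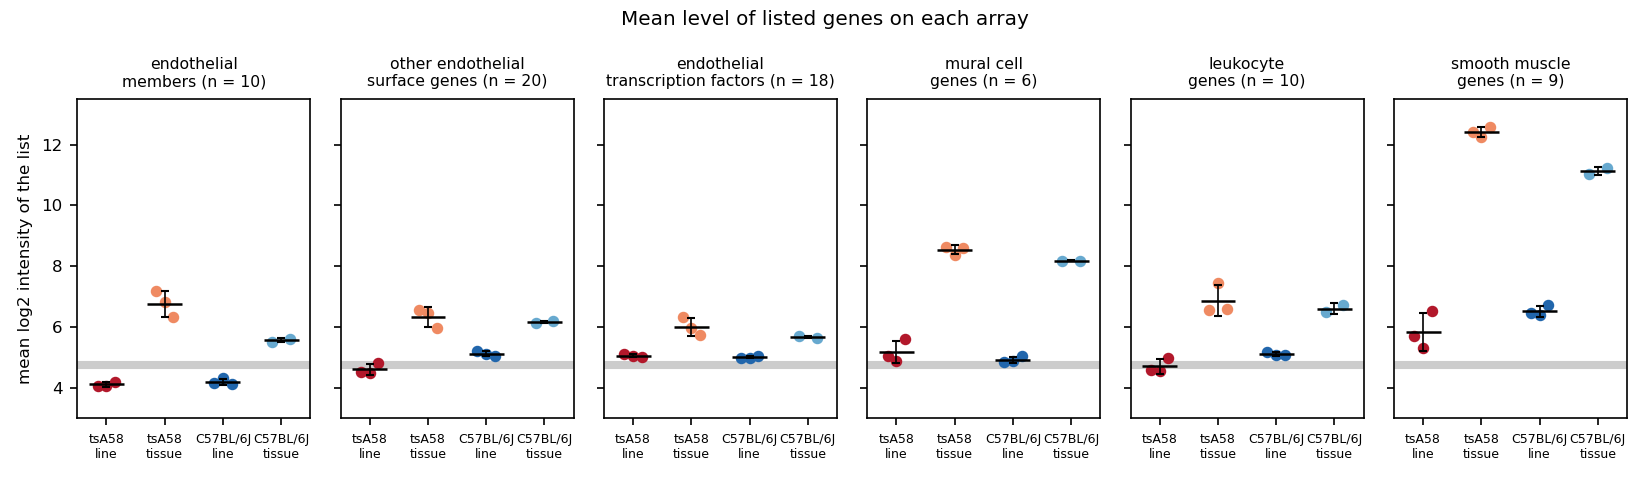
Mean log2 intensity on each array of the endothelial members, 2 further endothelial lists, and the mural cell, leukocyte and smooth muscle genes. Points are arrays, lines group means, bars SD, and the grey band the range of array medians. The member means run from 6.32 to 7.17 in tsA58 tissue, 5.52 to 5.61 in C57BL/6J tissue and 4.07 to 4.32 in the lines.

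The ligands of the member receptors gave different counts in the 2 pairs. Of 10 ligands and co-receptors, 5 were higher and 1 lower in the C57BL/6J line than in C57BL/6J tissue, where 20.8% of all probe sets were called in either direction. In the tsA58 line 1 was higher and 2 lower than in tsA58 tissue, where 18.4% of all were called. Vegfa, the ligand of Kdr, read 8.41, 9.42 and 8.90 in the tsA58 line, against 6.78, 6.71 and 5.86 in tsA58 tissue (2.46 ± 0.29, limma adjusted p = 0.000152). It read 10.68, 10.95 and 10.82 in the C57BL/6J line, against 6.51 and 6.53 in C57BL/6J tissue (4.30 ± 0.32, adjusted p = 9.74e-06). Vegfa was therefore higher in both lines, where its receptor was lower. Vegfc, the lymphatic growth factor, was lower in the tsA58 line than in tsA58 tissue (-1.90 ± 0.35) and higher in the C57BL/6J line than in C57BL/6J tissue (3.02 ± 0.40), and between the lines it was lower in the tsA58 line by 3.78 on the log2 scale. Pgf, the placental growth factor, was higher in the C57BL/6J line than in C57BL/6J tissue (3.02 ± 0.37) and lower in the tsA58 line than in the C57BL/6J line (-3.27 ± 0.33). Angpt1, an activating ligand of Tek, was lower in the tsA58 line than in tsA58 tissue (-2.10 ± 0.40). It was also the 1 gene lower in the C57BL/6J pair, at 3.44, 3.60 and 3.17 in the line, against 5.01 and 4.93 in the tissue. Between the tissues 1 of the 10 was called, against 9.68% of all probe sets: Vegfb, higher in tsA58 tissue (1.86 ± 0.19, adjusted p = 0.00036).

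Of 9 junction partners, 3 were called lower and 2 higher in the tsA58 pair, and 2 lower and 0 higher in the C57BL/6J pair. Jam3 was lower in both lines than in their tissues, at -2.10 in the tsA58 pair and -2.80 in the C57BL/6J pair. Ocln also read lower in both, at 3.22 to 4.27 on the line arrays, against 4.82 to 7.18 on the tissue arrays. Jam2 read 5.52 to 6.80 in the tsA58 line, against 8.06 to 8.80 in tsA58 tissue. Jam2 and Jam3 were higher in tsA58 tissue than in C57BL/6J tissue by 1.47 and 1.46. The shares of all probe sets called lower were 9.65% in the tsA58 pair and 10.3% in the C57BL/6J pair. In either direction 18.4% were called in the tsA58 pair, 20.8% in the C57BL/6J pair and 9.68% between the tissues. F11r (JAM-A), which epithelium also carries, was higher in the tsA58 line than in tsA58 tissue (1.62 ± 0.22). Of the 6 genes of mural cells, the cells that wrap small vessels, 4 were lower in the tsA58 pair and 3 in the C57BL/6J pair, led by Rgs5 at -8.10 in the tsA58 pair and -7.38 in the C57BL/6J pair. Between the tissues 0 of the 6 mural genes were called by limma (1 at an unadjusted p below 0.05), with list means of 8.38 to 8.64 in tsA58 tissue and 8.18 to 8.19 in C57BL/6J tissue.

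Each member was correlated over the 11 arrays with the members' mean profile, which contains that member and so raises its r. These Pearson correlations ran from 0.782 for Egfl7 to 0.988 for Esam. Across all other genes with a symbol, the profiles most like that mean were those of Slc7a8 (r = 0.993), Enpp3 (0.991), Ablim3 (0.989), Entpd2 (0.988) and Cilp (0.987), over 11 arrays and 18183 genes. In all 720 genes that are not members, these 5 included, had r of at least 0.9, above the members Cdh5 (0.885) and Egfl7. The arrays share the split between lines and tissues and the higher member levels of tsA58 tissue than of C57BL/6J tissue, so these correlations are a description of the 4 groups.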

How the data were processed

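RNA went through 2 rounds of amplification, the first primed with oligo(dT), and was hybridised to Affymetrix arrays, per the labels' protocols. The authors deposited log2 intensities, summarised per probe set with RMA according to the submitters' processing notes, and no RMA version is given there. RMA sets all arrays to a like distribution, so a shift of most transcripts would be removed. Of 45101 probe sets 64 controls were left out, and 34945 carried 1 symbol in the platform annotation, 932 several and 9160 none; the last 2 kinds were tested but not named.

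All 45037 probe sets were fitted in limma 3.58.1 (R 4.3.3) as 4 group means, with 7 residual and 2.89 prior degrees of freedom, no filter on low values, and Benjamini-Hochberg adjustment per comparison. The fit was tested on simulated data. Alternatives were other normalisations, a low-value filter, an actin-ratio covariate, a replicate block and each array left out. Sequences came from RefSeq, GRCm38.p6. Of 131 genes on 14 lists 122 had a single-symbol probe set. The members and lists were chosen with earlier results of these data known. Named were all members, up to 4 called genes of each list with the largest change in the comparison described, and the 5 genes most like the members' mean profile. Nos3, Hhex, Foxc1 and Gata2 were named as the genes of their lists called higher in a line than in its tissue.

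The labels name the replicates biological, but the series text counts arrays per sample, so p-values measure the spread between arrays, which may be technical. Replicate numbers recur across groups, but deviations of same-numbered arrays correlated between -0.16 and 0.17 over 15 pairs, with 1 above 0.1, so the arrays were not paired. The number of arrays limits the precision. Plots were drawn in matplotlib 3.10.9 under Python 3.11.15, with pandas 2.3.3 and numpy 2.4.6.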

Additional observations from a re-analysis of the deposited data

Results flagged for a closer look

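For 5 members the line-tissue difference itself differed between the 2 pairs by limma's test over all 4 groups, tsA58 pair minus C57BL/6J pair. All 5 were lower, against 7.01% of all probe sets called lower in this test. The value was -2.45 ± 0.43 for Pecam1 (adjusted p = 0.00499), whose line-tissue difference was -3.20 in the tsA58 pair and -0.76 in the C57BL/6J pair. It was -2.22 ± 0.53 for Tie1 (adjusted p = 0.0187), -1.78 ± 0.34 for Vwf (0.00746) and -1.78 ± 0.23 for Esam (0.00127). For Emcn it was -1.50 ± 0.39 (0.0281). In each of the 5 the line was lower in the tsA58 pair on all 3 line arrays than on all 3 tissue arrays, and the difference between the lines was not called. The same tissue arrays give the difference between the tissues, so the 2 results are not independent.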

How the results depend on the processing

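Of the 27 single results called, the 236 values under settings other than leaving out an array kept direction and call in 222, lost the call in 11 and changed direction in 3. Of their 297 values with 1 array left out 284 kept the call and 13 lost it. The changes of direction that follow, other than those of Esam, Vwf and Egfl7 1451428_x_at in the C57BL/6J pair, are of differences that were not called. The groups hold 2 or 3 arrays, and where 1 C57BL/6J tissue array was left, it was assumed to vary like the other groups. Signal near the array median limits most line levels.

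Replicate numbers as a replicate block left the counts of members called at 9 in the tsA58 pair, 6 in the C57BL/6J pair, 0 between the lines, 5 between the tissues and 5 for the difference of differences, and changed no other call among them. With 1 array left out the counts ranged from 8 to 9 in the tsA58 pair, from 5 to 6 in the C57BL/6J pair, from 3 to 6 between the tissues and from 3 to 5 for the difference of differences, and stayed at 0 between the lines. The 3 between the tissues came without C57BL/6J tissue array 2, and the 3 for the difference of differences without either C57BL/6J tissue array. For Emcn the call in the difference of differences was also lost with quantile normalisation (adjusted p = 0.0545) and without C57BL/6J line array 1 (0.0648) or array 2 (0.0644) or tsA58 tissue array 3 (0.0517). Cldn5 gained it without C57BL/6J line array 1 (0.0401). The cause was not tested.

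Centring on the hybridisation controls, which moved the median of all probe sets, gave 1 member called lower in the C57BL/6J pair, 7 higher between the lines, 10 higher between the tissues and 2 lower for the difference of differences. The shares of all probe sets it called in either direction were 34.5%, 76.9%, 92.6% and 2.89% in the same order. In the tsA58 pair it left 7 members called lower, with 13.9% of all probe sets called in either direction. The calls lost there were those of Cdh5 (-1.26, limma adjusted p = 0.147) and Kdr (-1.41, 0.0887). Under this centring the C57BL/6J pair turned to 0.42 for Cdh5, 0.48 for Pecam1, 1.02 for Tie1, 0.023 for Vwf, 9.9e-06 for Esam, and 1.00, 0.71 and 0.047 for Egfl7 1435823_x_at, 1451427_a_at and 1451428_x_at. The tsA58 pair turned to 0.45 for Cdh5 1422047_at, 0.48 for Egfl7 1421335_a_at and 0.026 for Egfl7 1451427_a_at. Between the lines it gave 1.10 and 1.13 for Cdh5 1422047_at and 1433956_at, 1.20 for Cldn5, 1.38 for Emcn, 1.37 for Kdr, 1.46 for Pecam1, 1.40 for Tie1 and 0.96 for Vwf. Between the tissues Cdh5 1422047_at turned to 2.02, and in the difference of differences Egfl7 1451428_x_at turned to -0.17. Cyclic loess turned Esam between the lines to -0.0028, Pecam1 to 0.042, Cdh5 1422047_at between the tissues to 0.011 and the Egfl7 1451427_a_at difference of differences to 0.084. Quantile normalisation gave 0.039, 0.018 and 0.0075 for the last 3 in the same order, and the actin ratio as a covariate turned Emcn between the lines to 0.075.

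With 1 array left out, the differences that changed sign ranged as follows. Cdh5 1422047_at ran from -0.20 to 0.47 in the C57BL/6J pair, from -0.44 to 0.22 between the tissues and from -0.62 to 0.047 in the difference of differences. Egfl7 1421335_a_at ran from -0.26 to 0.16 in the tsA58 pair, and in the difference of differences 1435823_x_at ran from -0.64 to 0.027 and 1451427_a_at from -0.26 to 0.29. Between the lines Emcn ran from -0.28 to 0.047, Esam from -0.040 to 0.075, Kdr from -0.29 to 0.035, Pecam1 from -0.11 to 0.069 and Tie1 from -0.18 to 0.021.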

Other observations

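Genes of the other cells of the stomach wall were counted by the same test, which called 9.65% of all probe sets lower in the tsA58 pair and 10.3% in the C57BL/6J pair. Of 6 gastric epithelium genes 6 were lower in the tsA58 line than in tsA58 tissue and 5 in the C57BL/6J line than in C57BL/6J tissue, led by Gkn2, a secreted protein of the gastric mucosa, at -8.05 in the tsA58 pair and -8.60 in the C57BL/6J pair. Of 9 smooth muscle genes 9 were lower in the tsA58 pair and 7 in the C57BL/6J pair, and of 10 leukocyte genes 6 were lower in each, with 1 higher in the C57BL/6J pair. Pf4, a chemokine of platelets that macrophages also make, was lower by 4.41 in the tsA58 pair and by 4.45 in the C57BL/6J pair, among 9 platelet genes of which 2 and 1 were lower in the same order of pairs. Of 8 erythroid genes listed 5 were measured, and 1 of these was called between the tissues. Of all probe sets 9.68% were called there in either direction, so 1 of 5 says little about the list. The gene called was Hba-a2 (haemoglobin alpha), lower in tsA58 tissue than in C57BL/6J tissue (-1.35 ± 0.17, limma adjusted p = 0.000983). It read 3.85, 4.03 and 3.98 in tsA58 tissue, below the array median, against 5.20 and 5.41 in C57BL/6J tissue. Kit and Ano1, the chloride channel of ICC, were lower in both lines than in their tissues, at -4.36 and -2.68 in the tsA58 pair and -3.55 and -3.66 in the C57BL/6J pair. Of 6 mesothelium genes, 2 were lower and 0 higher in the tsA58 pair, and 0 were lower and 1 higher in the C57BL/6J pair. The 1 higher was Wt1 (3.35 ± 0.61), where 20.8% of all probe sets were called in either direction. Between the lines 3 of the 6 were lower in the tsA58 line, against 8.06% of all probe sets called in either direction. For these genes tsA58 line array 3 stood apart from the other tsA58 line arrays.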
